A study of Mus musculus with 16 samples.

Results

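The comparison described here sets mouse embryonic stem (ES) cells labelled as Pml knockout against wild-type cells. It uses 4 of the 16 RNA-seq libraries of the series, 2 wild type and 2 Pml knockout, chosen by their columns in the table of FPKM values (fragments scaled to transcript length and library size). All 4 are labelled as untreated cells of the E14Tg2a.IV line, with the strain given as C57BL/6. They were grown without feeder cells in serum and LIF, the cytokine that keeps ES cells undifferentiated. A second ES line, CCE, appears in the growth protocol without being tied to a sample. The labels do not say how the knockout was made, how many clones it rests on, or whether replicate libraries are separate cultures. The p-values therefore measure only the spread between these libraries, which may be technical.

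PML is the scaffold of PML nuclear bodies, which gather SUMO-modified proteins such as DAXX, and has been linked to transcription, the p53 response, senescence and metabolism. The series title adds TRIM33, a chromatin reader that joins SMAD2 and SMAD3, and Lefty1 and Lefty2, secreted inhibitors of Nodal. Nodal and activin signal through those SMADs, and ES cells make such signals themselves.

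Pml was at 49.8 and 45.1 FPKM in the wild-type libraries and at 32.0 and 33.5 in the knockout libraries. The groups did not overlap, and Pml fell by 0.52 on the log2 scale (SE 0.0647, limma adjusted p = 0.000491). Most of the Pml signal thus remained in the libraries labelled knockout. A value for the whole gene does not show which exons are kept or whether protein is made. All fold changes here are differences of log2(FPKM + 1), which understate the change of low genes.

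Of 11645 genes tested, 4126 (35.4%) were called at adjusted p under 0.05 (limma, Benjamini-Hochberg over all genes tested). There were 1931 (16.6%) higher and 2195 (18.8%) lower in the knockout. Only 448 (3.85%) were called and changed at least 2-fold, 348 of them higher and 100 lower. At 4-fold or more, 66 were higher and 11 lower. Large changes were thus mostly rises. Groups did not overlap in 69.4% of all genes tested, and in each of the 4126 called. The median log2 fold change of all genes was -0.02. A list of genes is read below against these shares, and the lists overlap in part.

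**Figure D1:**
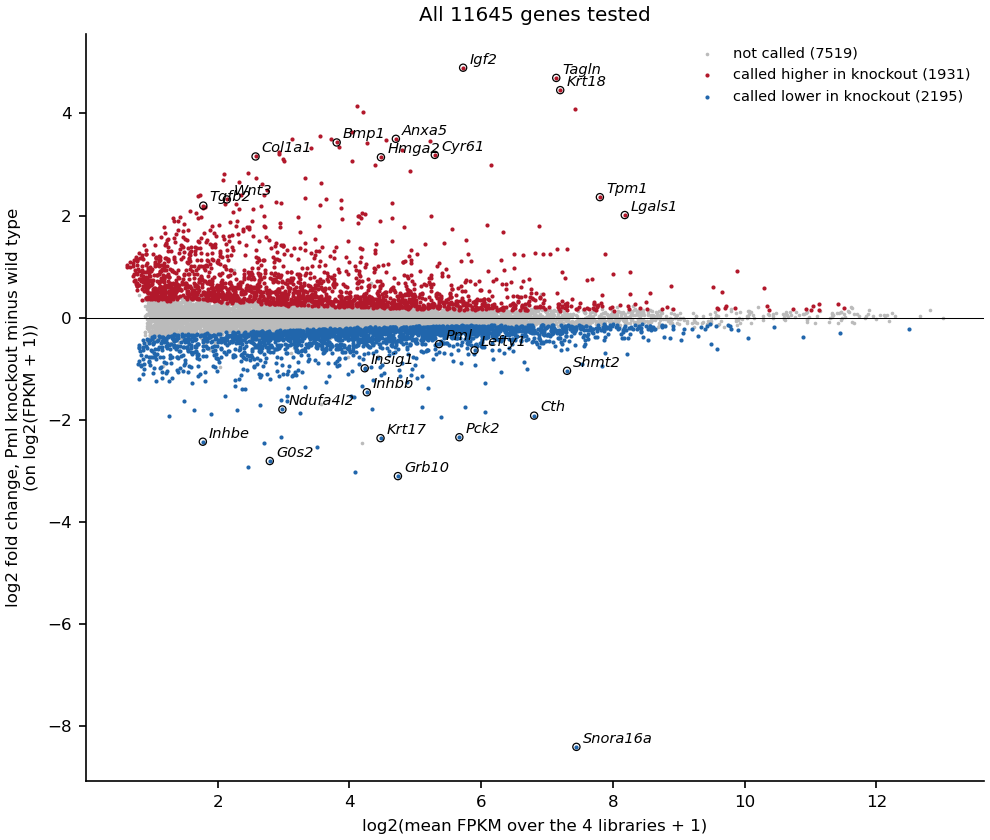
Each point is 1 of the 11645 genes tested, with its mean level over the 4 libraries (log2 of mean FPKM + 1) on the x axis and its log2 fold change, knockout minus wild type, on the y axis; red is called higher, blue called lower, grey not called. Rises reach log2 4.90 (Igf2), while apart from Snora16a the falls end near -3.11 (Grb10).

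Ligands of the TGF-beta family moved in opposite directions. Inhbb, which encodes the subunit of activin B, was at 27.5 and 27.0 FPKM in the wild-type libraries against 9.35 and 9.11 in the knockout. Inhbe, the activin E subunit, went from 5.05 and 4.51 to 0.0833 and 0.0551. Both groups were tight and far apart, with log2 changes of -1.46 for Inhbb (SE 0.0649, adjusted p = 1.35e-06) and -2.43 for Inhbe (SE 0.113, adjusted p = 1.8e-06). Tgfb2 took the opposite course. It was at 0.251 and 0.217 FPKM in the wild-type libraries against 4.55 and 4.74 in the knockout, a rise of 2.19 (SE 0.107, adjusted p = 2.29e-06). Inhbe passed the filter on low values (at least 1 FPKM in 2 libraries) through wild type alone, and Tgfb2 through the knockout alone. Both had to differ to be tested, so their p-values are not counted as support. Nodal itself was at 38.8 and 39.2 against 50.8 and 52.2, and its co-receptor Tdgf1 fell from 391 and 403 to 315 and 296. The bone morphogenetic protein Bmp4 fell from 54.1 and 51.9 to 40.8 and 38.5. Another, Bmp8b, named after its value was seen, rose from 1.12 and 1.03 to 6.39 and 7.15.

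Several targets of BMP signalling rose. The homeobox gene Msx2 was at 1.204 and 1.16 FPKM in wild type and reached 6.79 and 6.36 in the knockout (log2 change 1.79, SE 0.0977, adjusted p = 4.39e-06). Id2 and Id3, inhibitors of basic helix-loop-helix factors, rose by 1.11 and 0.71. The extracellular BMP antagonist Nog rose as well, from 0.351 and 0.0833 to 2.44 and 2.52. Of 14 BMP and Id genes tested, 6 rose and 1 fell, and 2 of the 14 passed the filter on low values through the knockout alone. Such genes had to differ to be tested. The receptors Bmpr1a and Bmpr2 and the signal carriers Smad1 and Smad5 were not called, with log2 changes of 0.20, 0.18, -0.17 and 0.19.

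Genes of the contractile cytoskeleton rose broadly. Serum response factor (SRF) drives such genes, together with co-factors that sense free actin, through a sequence called the CArG box. Of 36 tested members of the list, 28 (77.8%) rose and 4 fell, against 16.6% and 18.8% of all genes, with a median log2 change of 0.75. Another 5 members did not pass the filter, and 4 of the 36 passed through the knockout alone.

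Caldesmon (Cald1), which regulates actin and myosin, was at 6.40 and 6.11 FPKM in the wild-type libraries against 49.2 and 55.0 in the knockout. Tropomyosin Tpm1 was at 71.1 and 72.6 against 362 and 384. Zyxin (Zyx), a focal adhesion protein, was at 8.20 and 7.29 against 40.8 and 40.5. Wild-type and knockout values lay several-fold apart in each, with log2 changes of 2.87 (SE 0.0739, adjusted p = 5.71e-08), 2.36 (SE 0.0492, adjusted p = 2.32e-08) and 2.25 (adjusted p = 2.27e-07). Skeletal actin (Acta1) went from 0.810 and 0.832 to 20.3 and 20.8, and the LIM-domain co-factor Fhl2 from 0.620 and 0.530 to 9.51 and 9.42. Abundant members rose by less. Cytoplasmic actin Actg1 was at 1017 and 1009 against 1497 and 1517, and the myosin light chain Myl6 at 559 and 607 against 873 and 900. Outside the list, Tmsb4x, which holds free actin, was at 638 and 664 against 1221 and 1237.

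The fallers of this list were named after their values were seen. Nonmuscle myosin heavy chain Myh9 was at 31.5 and 27.9 FPKM in the wild-type libraries against 12.5 and 13.4 in the knockout, a log2 change of -1.13 (SE 0.0774, adjusted p = 1.6e-05), while Myh10 rose by 0.42. Beta-actin (Actb) fell by 0.17, Des by 0.42 and Csrp2 by 0.30. Srf itself rose by 0.32, and its co-factors Mkl1 and Mkl2 were not called, both at 0.23.

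The CArG box is shown for the 4 called members with the largest change whose promoter holds one, since 11 of the 29 tested list members with a RefSeq promoter (37.9%) had a match. Bases are those before the RefSeq start site, build GRCm38.p6, written on the gene's strand, with the CArG box in capitals. The stretches are chr8:123894809-123894878 (Acta1, minus strand), chr1:43196818-43196887 (Fhl2, minus), chr10:79988514-79988583 (Cnn2, plus) and chr2:156775273-156775342 (Myl9, plus).
Acta1: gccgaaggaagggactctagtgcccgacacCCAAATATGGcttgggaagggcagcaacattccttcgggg
Fhl2: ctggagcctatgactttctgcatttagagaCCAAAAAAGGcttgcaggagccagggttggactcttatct
Cnn2: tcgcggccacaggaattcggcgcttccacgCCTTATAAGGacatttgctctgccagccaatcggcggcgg
Myl9: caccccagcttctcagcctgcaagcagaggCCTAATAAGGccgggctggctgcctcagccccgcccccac

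The box began 73 bases before the start site in Acta1 (position -73), at -96 in Fhl2, -56 in Cnn2 and -161 in Myl9. In the GENCODE annotation Fhl2 spans chr1:43123074-43196984, so its stretch lies inside that span. Both strands of the 250 bases before the start were searched. A CArG box lay in 1.62% of all RefSeq genes of the promoter table and in 1.39% of tested genes with an entry. It lay in 4.78% of the 251 genes with an entry that rose at least 2-fold, and in 5.56% of the 72 that fell at least 2-fold, so its share was above that of all tested genes on both sides. The list was assembled from genes known to answer to SRF, so its share is a description of the list.

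Targets of YAP and TEAD factors, which report on cell spreading and tension, rose in 16 of 21 tested members (76.2%), with 2 falls and a median of 0.92. The secreted matrix protein Cyr61 was at 6.76 and 6.79 FPKM in the wild-type libraries against 67.6 and 72.2 in the knockout (log2 change 3.19, SE 0.0632, adjusted p = 2.01e-08). The receptor kinase Axl was at 0.596 and 0.672 against 7.02 and 8.18. Amotl2, an angiomotin that restrains YAP, was at 17.9 and 18.6 against 40.6 and 41.9. Ankrd1 went from 0.119 and 0 to 1.21 and 1.48 and is 1 of 3 members that passed the filter through the knockout alone. Yap1 and Wwtr1 were not called, at 0.12 and 0.05, Tead1 rose by 0.44, and Tead2 and Tead4 fell by 0.40 and 0.42. The letters GGAATG, in the core of the TEAD motif, were in 9 of 15 promoters of the list (60.0%). They were in 12.8% of tested genes, 19.5% of those that rose at least 2-fold and 15.3% of those that fell at least 2-fold. The SRF list had them in 12 of 29 promoters (41.4%), so they were not particular to YAP and TEAD targets. Amino acid transporters, which fell more often than they rose, had them in 4 of 16, and ATF4 effectors in 1 of 25. The list was assembled from known targets, so its share is a description of the list.

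Annexins, calcium-dependent membrane binders, and S100 proteins rose in 11 of 16 tested members (68.8%), with 1 fall, 2 of the 16 having passed through the knockout alone. Anxa5 was at 3.16 and 3.28 FPKM in the wild-type libraries against 43.4 and 50.5 in the knockout, a rise of 3.50 (SE 0.0859, adjusted p = 4.44e-08). Anxa1, Anxa3 and Anxa2 rose by 3.49, 3.28 and 2.99. Anxa2 was the most abundant of them in the knockout, at 121 and 129 FPKM, while its S100a10 partner went from 209 and 221 to 388 and 408. Anxa4 was not called, at 0.14, and Anxa11 fell by 0.20. The rises thus did not cover the whole family.

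Keratins split within the family. Krt7 and Krt19 went from 0.203 and 0.662 to 14.7 and 15.5, and from 5.53 and 4.93 to 70.6 and 63.9 FPKM. The type I keratin Krt17 was at 36.0 and 36.4 in wild type and at 6.65 and 5.83 in the knockout, a log2 change of -2.36 (SE 0.0762, adjusted p = 2.27e-07). Its neighbour in the same gene cluster, Krt42, fell from 41.1 and 39.8 to 19.9 and 19.13. Vimentin (Vim), the intermediate filament of mesenchymal cells, rose from 87.2 and 90.1 to 221 and 230. Wild-type cells thus had more Krt17 and Krt42 than Krt8 or Krt18 in FPKM, which stood at 11.3 to 18.4, and knockout cells had the opposite order. Of 17 tested members, 9 rose and 4 fell, and 3 passed through the knockout alone.

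Many matrix and adhesion genes rose. Among enzymes that process collagen and matrix, 14 of 22 (63.6%) rose and 2 fell, 5 having passed through the knockout alone, and 9 rose among those with at least 5 FPKM in 2 libraries. Bmp1, the procollagen C-proteinase, was at 1.43 and 1.32 FPKM in the wild-type libraries against 24.1 and 25.2 in the knockout (log2 change 3.43, SE 0.0834, adjusted p = 4.38e-08). The collagen chaperone Serpinh1 rose from 33.9 and 30.3 to 77.8 and 77.7. The inhibitors of matrix proteases Timp2 and Timp3 rose by 1.87 and 1.596, and the protease Mmp9 by 1.49, so enzymes and inhibitors were higher together.

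Most collagen genes were low, with 25 of 37 under 1 FPKM in all 4 libraries. The summed level of the 37 was 111 and 103 in the wild-type libraries against 177 and 182 in the knockout. Only 12 of 37 collagen genes passed the filter, 5 of them through the knockout alone and 2 through wild type alone, so their called share is not read here. Col1a1 was at 0.192 and 0.208 FPKM in the wild-type libraries against 8.97 and 10.5 in the knockout. Col4a1 and Col4a2, the chains of basement membrane collagen, rose from 6.22 and 5.23 to 15.3 and 15.6 and from 2.63 and 2.36 to 10.6 and 11.3. Col26a1 and Col5a3 fell by 1.24 and 0.86. Of 20 laminins and other matrix proteins tested, 10 rose and 2 fell, and 2 passed through the knockout alone. Thrombospondin (Thbs1) rose from 1.35 and 0.932 to 21.2 and 25.1, and the proteoglycan versican (Vcan) from 5.65 and 5.47 to 10.8 and 10.9. The laminin chains divided. Lamb1 rose by 0.71, while Lama1 and Lamc1 fell by 0.50 and 0.33.

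Of 28 integrin and focal adhesion genes tested, 16 (57.1%) rose and 2 fell. Of the 28, 5 passed through the knockout alone, and 10 rises were left at a minimum of 5 FPKM. Alpha-parvin (Parva), which ties integrins to actin, went from 1.03 and 1.12 to 9.50 and 10.4 FPKM. Itga3, a laminin receptor chain, went from 19.01 and 17.0 to 48.6 and 52.9. Caveolin Cav1 was close to absent in wild type, at 0.0396 and 0.0204, and at 3.08 and 2.85 in the knockout. Focal adhesion kinase (Ptk2) and paxillin (Pxn) were not called, at 0.04 and -0.02. Epithelial junction genes rose in 26 of 43 tested members (60.5%), with 2 falls and 2 members that passed through the knockout alone. The desmosome genes Dsc2 and Dsp rose by 2.65 and 2.34, and the claudins Cldn6 and Cldn7 by 1.53 and 1.33. E-cadherin (Cdh1) was not called, at 117 and 114 against 124 and 117, whereas N-cadherin (Cdh2) rose from 1.78 and 2.10 to 8.78 and 9.49. Genes of epithelial junctions and mesenchymal genes were thus higher in the same libraries.

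**Figure D2:**
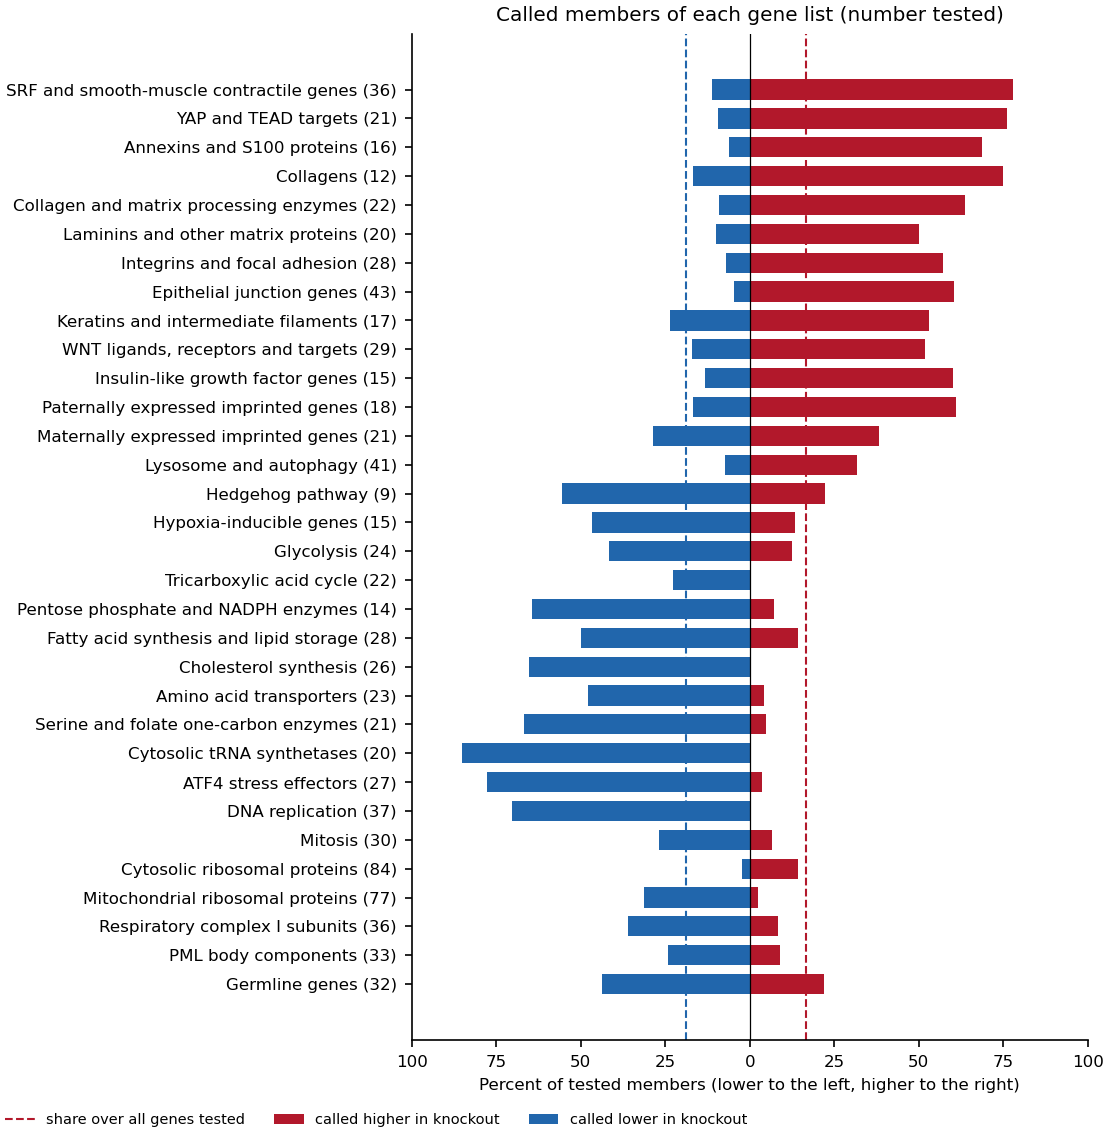
Bars give the percent of tested members of each list called higher (red, to the right) or lower (blue, to the left) in the knockout, with the number tested in brackets; dashed lines mark the shares over all genes, 16.6% and 18.8%. Cytoskeleton, matrix and adhesion lists reach past the red line, and tRNA synthetases, ATF4 effectors and DNA replication past the blue one; members that passed the filter through 1 group alone are included, and had to differ to be tested.

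WNT ligands, which signal through beta-catenin or polarity pathways, were a further group of secreted factors. Wnt3 was at 0.550 and 0.404 FPKM in the wild-type libraries against 6.37 and 6.31 in the knockout (log2 change 2.31, SE 0.107, adjusted p = 1.71e-06). Wnt5a and Wnt4 went from 0.349 and 0.213 to 4.91 and 4.54, and from 0.189 and 0.337 to 4.53 and 4.71. Wls, which carries WNT proteins to the cell surface, went from 0.925 and 0.931 to 16.7 and 20.2. Wnt3, Wnt5a, Wnt4 and Wls each passed the filter through the knockout alone. They had to differ to be tested, so the p-value of Wnt3 is not counted as support. The secreted WNT antagonist Sfrp1 fell from 17.6 and 15.8 to 6.05 and 6.77. The feedback target Axin2, named after its value was seen, rose from 3.62 and 3.32 to 6.83 and 7.28, and Sp5, another direct target, from 3.79 and 3.29 to 8.95 and 9.11. Lef1, Tcf7 and Tcf7l2 were not called, at -0.07, 0.13 and 0.12. In all, 15 of 29 tested genes rose and 5 fell, 7 of the 29 having passed through the knockout alone, and 7 rises were left at a minimum of 5 FPKM.

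Hedgehog genes moved both ways. The receptor and target Ptch1 was at 29.6 and 27.0 FPKM in the wild-type libraries against 18.6 and 19.8 in the knockout. The transcription factors Gli1 and Gli2 fell by 0.38 and 0.56, and Gli3 rose by 1.03. Of 9 tested genes, 5 fell and 2 rose, and 1 of the falls, Hhip, passed the filter through wild type alone. Among feedback genes of FGF and ERK signalling, the phosphatases Dusp4 and Dusp5 rose by 1.44 and 1.16 and the ETS factor Etv4 fell by 0.48. Spry1 and Spry2 were not called, at 0.15 and -0.13, so this list held members moving both ways. Ephrin A5 (Efna5), which passed through the knockout alone, rose by 1.54, and the receptor Epha1 by 1.33 from 4.81 and 4.66 to 13.7 and 13.04.

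Genes of insulin-like growth factor (IGF) action changed at several levels. Igf2, the growth factor, was at 2.63 and 2.26 FPKM in the wild-type libraries against 99.1 and 104 in the knockout, a rise of 4.90 (SE 0.0751, adjusted p = 5.39e-09). The binding proteins Igfbp4, Igfbp7 and Igfbp3, which hold IGFs outside the cell, rose by 2.99, 2.18 and 1.78. Igfbp3 reached 41.0 and 45.2 from 12.2 and 11.5. Grb10, an adaptor that restrains insulin and IGF receptors, was at 48.2 and 45.4 against 4.16 and 4.96, and fell by 3.11 on the log2 scale (SE 0.0851, adjusted p = 8.69e-08). The receptors Igf1r and Igf2r rose by 0.55 and 0.37. The insulin receptor Insr and the abundant binding protein Igfbp2 were not called, at 0.04 and -0.07. Of 15 tested members, 9 rose and 2 fell, and 1 passed through the knockout alone.

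Igf2 and Grb10 are imprinted, that is, expressed from 1 parental copy. Igf2 lies at chr7:142650766-142666816 and Grb10 at chr11:11930508-12038683 (GRCm38, GENCODE). H19, the maternally expressed neighbour of Igf2, stayed under 1 FPKM in every library, from 0.319 to 0.620. Of 18 paternally expressed genes tested, 11 (61.1%) rose and 3 fell, with 1 that passed through each group alone. Zdbf2 went from 5.34 and 5.93 to 15.8 and 16.9, Impact from 32.9 and 37.8 to 74.6 and 80.1, and Peg10 from 58.2 and 62.6 to 115 and 124. Mest and Nnat, named after their values were seen, fell by 0.90 and 0.89. Of 21 maternally expressed genes, 8 rose and 6 fell, with 1 that passed through the knockout alone. Gnas rose from 114 and 113 to 195 and 196, and the non-coding Rian from 35.4 and 38.9 to 56.3 and 54.8. Both classes of imprinted genes held rises and falls.

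**Figure D3:**
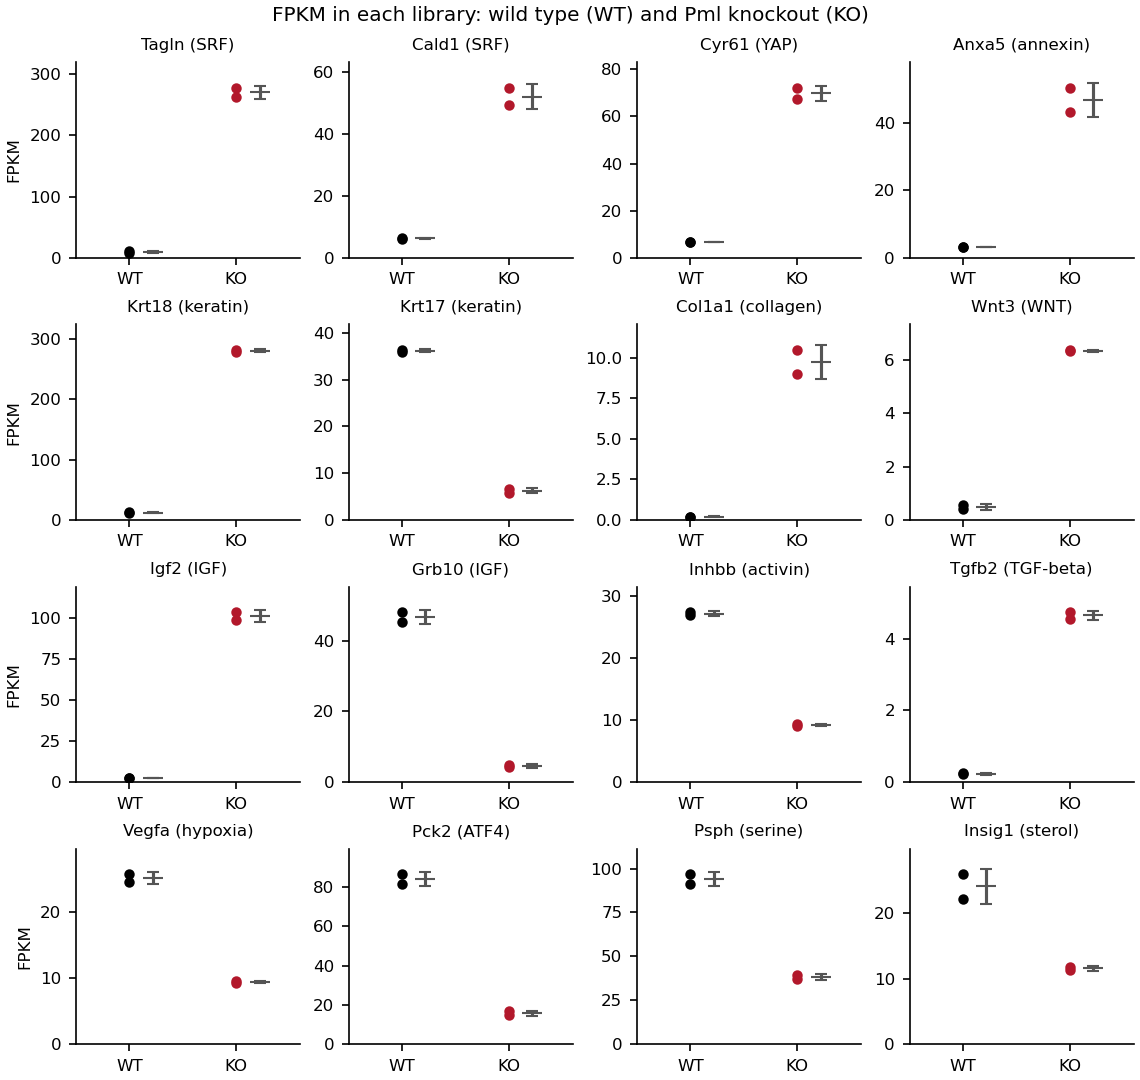
FPKM of 16 genes, named above or below, in each library; black points are the 2 wild-type (WT) and red points the 2 Pml-knockout (KO) libraries, and the grey bar beside each pair is the mean with SD. In each panel the knockout pair lies wholly above or wholly below the wild-type pair, with Krt17, Grb10, Inhbb, Vegfa, Pck2, Psph and Insig1 lower.

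Many genes of amino acid supply fell. ATF4 is the factor that cells raise when amino acids run short or proteins misfold, and it switches on transporters, serine synthesis, tRNA charging and stress genes. Of 27 tested ATF4 effectors, 21 (77.8%) fell and 1 rose, with a median log2 change of -0.63, and 3 passed the filter through wild type alone. Mitochondrial PEPCK (Pck2) was at 86.6 and 81.5 FPKM in the wild-type libraries against 16.6 and 14.9 in the knockout, a log2 change of -2.35 (SE 0.0682, adjusted p = 1.22e-07). Cystathionine gamma-lyase (Cth) fell from 170 and 182 to 45.1 and 46.3, the alanine transaminase Gpt2 from 52.4 and 51.3 to 15.1 and 14.2, and the glutathione-degrading Chac1 from 69.5 and 61.4 to 16.6 and 15.9. Atf4 itself was at 161 and 161 against 160 and 151, Ddit3 at 12.03 and 6.73 against 8.34 and 10.6, and Atf3 at 3.72 and 3.60 against 3.49 and 4.16, and these 3 were not called. The member that rose was Cdkn1a, from 16.7 and 17.4 to 40.1 and 41.3, which also answers to p53.

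The ATF4 recognition letters TGATGNAA were in 10 of 25 promoters of the tested list members with an entry (40.0%), against 3.91% of all RefSeq genes and 2.31% of tested genes. They were in 16.7% of the 72 genes that fell at least 2-fold and in 3.19% of the 251 that rose at least 2-fold. The list was assembled from known ATF4 effectors, so its share is a description of the list. Some of its members with a match, such as Pck2 and Chac1, are also among the genes that fell at least 2-fold, so these shares are not independent. The 4 called members with the largest change and a match are shown, with the motif in capitals. It reads TGATGNAA on the gene's own strand in Pycr1 and on the opposite strand in the other 3. The stretches are chr14:55540133-55540200 (Pck2, plus strand), chr2:119351019-119351086 (Chac1, plus), chr7:126625543-126625610 (Nupr1, minus) and chr11:120643814-120643881 (Pycr1, minus), build GRCm38.p6.
Pck2: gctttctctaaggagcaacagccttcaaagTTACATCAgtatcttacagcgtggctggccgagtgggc
Chac1: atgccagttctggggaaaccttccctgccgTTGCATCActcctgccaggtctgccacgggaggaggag
Nupr1: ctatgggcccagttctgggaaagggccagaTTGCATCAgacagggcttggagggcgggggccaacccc
Pycr1: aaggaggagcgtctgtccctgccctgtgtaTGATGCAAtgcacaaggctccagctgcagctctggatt

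The motif began at -103 in Pck2, -193 in Chac1, -110 in Nupr1 and -103 in Pycr1, counted from the start site. Each stretch is from before the RefSeq start site, and no overlap with the other motifs was looked for. In the GENCODE annotation Nupr1 spans chr7:126623249-126630861, so its stretch lies inside that span. None of the 18 serine and folate gene promoters with an entry held these letters, which says only that the letters are not in this window. A match is a description and does not show that a factor binds there.

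Enzymes of serine synthesis and folate one-carbon metabolism, which feed nucleotide and methyl-group synthesis, fell in 14 of 21 tested members (66.7%), and 1 rose. Of the falls, Aldh1l2 passed the filter through wild type alone, and Aldh1l1, not called at 0.25, passed through the knockout alone. Along the serine pathway, Phgdh went from 244 and 236 FPKM to 133 and 121, Psat1 from 366 and 370 to 224 and 227, and Psph from 91.0 and 96.8 to 39.4 and 36.9. The next mitochondrial steps fell too. Shmt2 went from 220 and 204 to 103 and 102 (log2 change -1.04, SE 0.0523, adjusted p = 2.67e-06), Mthfd2 from 136 and 139 to 68.3 and 66.8, and Aldh1l2 from 3.21 and 3.25 to 0.361 and 0.376. The cytosolic Shmt1 was not called, at -0.13, and neither was Gldc, which cleaves glycine, at -0.10. The falls of over 1 on the log2 scale were thus Psph and 3 mitochondrial enzymes.

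Amino acid transporters fell in 11 of 23 tested members (47.8%) and 1 rose, and 1 of the falls, Slc7a11, passed through wild type alone. The glycine transporter Slc6a9 fell from 6.11 and 6.85 to 1.69 and 1.94, and the glutamine carrier Slc1a5 from 42.5 and 38.0 to 16.2 and 16.3. Slc7a5, the light chain of the leucine transporter, went from 131 and 128 to 68.4 and 72.4, and its heavy chain Slc3a2 from 144 and 134 to 94.4 and 92.1. Slc38a2 was not called, at 87.1 and 92.5 against 88.1 and 91.3. Cytosolic tRNA synthetases, which load amino acids onto tRNAs, fell in 17 of 20 tested members (85.0%) and none rose. Nars, for asparagine, was at 294 and 304 against 160 and 150 (log2 change -0.94, SE 0.0494, adjusted p = 3.48e-06), and Gars, for glycine, at 281 and 296 against 181 and 176. The 3 that were not called were Farsa, Hars and Qars, at -0.06, -0.11 and -0.08. Of 17 mitochondrial tRNA synthetases, 6 fell and 1 rose, with 3 falls without knockout replicate 2 and 2 without the filter.

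Sterol genes fell by smaller amounts. Of 26 tested genes of cholesterol synthesis and its control, 17 (65.4%) fell and none rose, with a median of -0.28. Insig1, which holds the sterol-sensing SREBP proteins in the endoplasmic reticulum, went from 25.9 and 22.2 to 11.8 and 11.3. Farnesyl diphosphate synthase (Fdps) went from 182 and 171 to 120 and 124, and Cyp51 from 17.1 and 16.4 to 11.1 and 11.3. The sterol response letters TCACNCCAC were in 1 of 19 promoters of the list (5.26%), against 1.31% of tested genes with an entry. Without the filter on low values, 11 members were called lower.

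Lipid genes included both directions. The desaturase Scd1 fell from 25.2 and 26.1 to 12.6 and 12.5, and G0s2, an inhibitor of lipolysis, from 13.3 and 8.97 to 0.888 and 0.534. Plin2, the coat protein of lipid droplets, rose from 7.26 and 6.10 to 27.3 and 25.7, and the fatty acid carrier Fabp5 from 22.2 and 21.6 to 32.8 and 35.2. In all, 14 of 28 tested genes fell and 4 rose, with 9 falls without the filter, and G0s2 passed it through wild type alone. Enzymes of the pentose phosphate pathway and NADPH supply fell in 9 of 14, by at most 0.47 on the log2 scale (Idh2).

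Hypoxia-inducible genes fell in 7 of 15 tested members (46.7%) and 2 rose. The vessel growth factor Vegfa was at 25.7 and 24.4 FPKM in the wild-type libraries against 9.21 and 9.46 in the knockout, a log2 change of -1.33 (SE 0.0674, adjusted p = 2.78e-06). Ndufa4l2 went from 11.7 and 10.8 to 2.87 and 2.21, Epas1, which encodes HIF-2 alpha, from 11.6 and 11.3 to 5.02 and 4.49, and the kinase Pdk1 from 58.8 and 61.3 to 32.9 and 33.1. Bnip3, Ndrg1 and Kdm3a were not called, at -0.09, -0.13 and 0.09, and Hif1a, named after its value was seen, rose by 0.18. Glycolytic genes fell in 10 of 24 and rose in 3, with 6 falls without knockout replicate 2 and 6 without the filter. Pfkm fell by 0.62, while the regulator Pfkfb3 and the transporter Slc2a3 rose by 0.87 and 0.47. Ldha, Pgk1 and Pkm were not called, at 0.02, -0.12 and -0.03.

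Genes of DNA replication fell in 26 of 37 tested members (70.3%) and none rose, with a median of -0.23. The count was 17 without knockout replicate 2. Thymidine kinase (Tk1) was at 73.6 and 69.8 FPKM in the wild-type libraries against 47.0 and 49.8 in the knockout, and the helicase partner Gins2 at 76.7 and 73.8 against 52.5 and 49.2. The helicase subunit Mcm6 fell by 0.41 and the catalytic polymerase subunit Pold1 by 0.52. Mitotic genes fell in 8 of 30 (26.7%) and rose in 2, with 2 falls without either knockout library and 4 without wild-type replicate 2. Cdk1, Ccnb1 and Top2a were not called, at 0.13, -0.05 and -0.08. Of the G1 regulators, the CDK inhibitors Cdkn2b and Cdkn2a rose, from 1.71 and 1.26 to 7.61 and 7.26 and from 11.4 and 11.4 to 26.3 and 23.2. E2f2 fell from 10.4 and 10.2 to 3.85 and 4.66, and cyclin D2 (Ccnd2) fell by 0.76. Of the 21 tested members of that list, 4 rose and 7 fell.

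**Figure D4:**
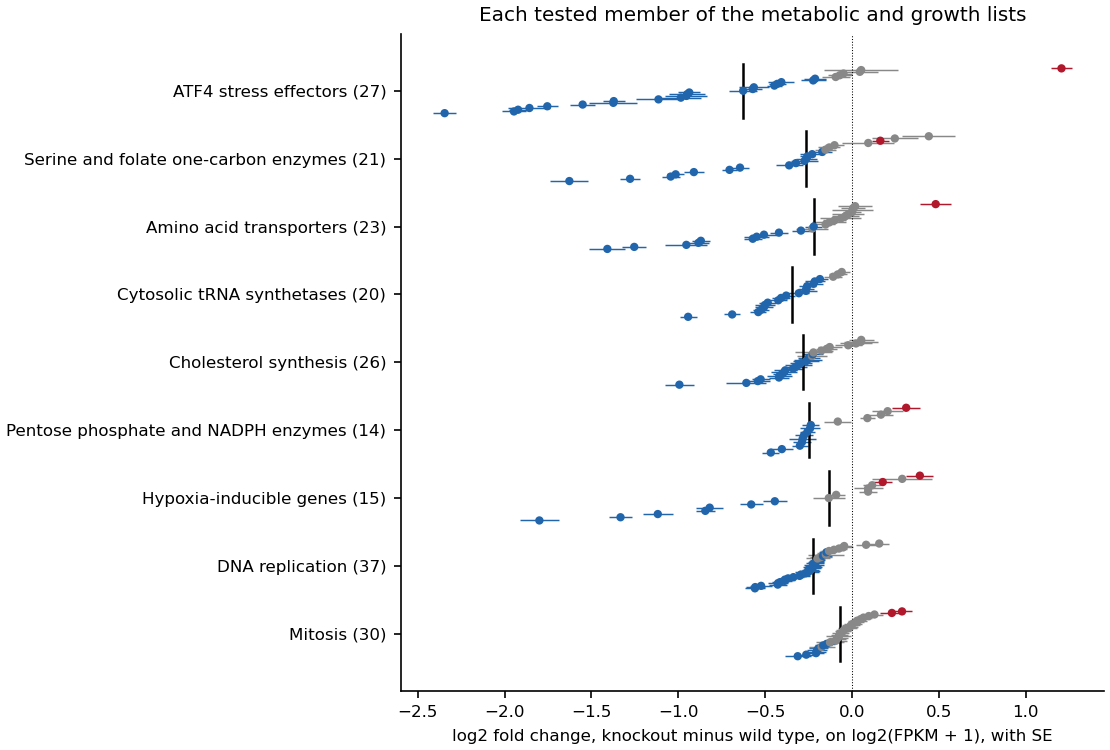
Each point is a tested member of the list on the y axis, at its log2 fold change (knockout minus wild type, on log2(FPKM + 1)) with its SE; blue is called lower, red called higher, grey not called, and the black line is the list's median. ATF4 effectors spread from -2.35 to the rise of Cdkn1a, and tRNA synthetases all lie below 0, from -0.94 to -0.06. DNA replication genes run from -0.56 to 0.16 with a median below 0, and mitotic genes from -0.31 to 0.29.

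Mitochondrial ribosomal proteins fell in 24 of 77 (31.2%) and rose in 2, with 15 falls without knockout replicate 2. Complex I subunits fell in 13 of 36, but in 3 without the intensity trend of the variance, 4 without knockout replicate 2, and 7 with rescaled values. Cytosolic ribosomal proteins rose in 12 of 84 (14.3%), below the share of all genes, and this count was 6 and 21 without wild-type replicates 1 and 2, and 4 without knockout replicate 1. Lysosome and autophagy genes rose in 13 of 41 (31.7%) and fell in 3. The proteases Ctsl and Ctsd went from 59.4 and 63.0 to 99.8 and 93.1 and from 88.5 and 85.1 to 127 and 128. Among glutathione and antioxidant genes, 13 of 35 fell and 4 rose, with 8 falls without knockout replicate 2. Gsr, the glutathione reductase, fell by 0.71, Hmox1 by 0.66, and the endoplasmic reticulum peroxidase Gpx8 rose by 1.73.

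Of 33 tested components of PML bodies, 8 fell and 3 rose, so that the share called is near the 35.4% of all genes, and Pml is 1 of the 8. The kinase Hipk2, which phosphorylates p53, went from 6.24 and 6.20 FPKM to 3.35 and 3.07 (log2 change -0.78, SE 0.0914, adjusted p = 0.000357). The p53 ligase Mdm2 rose from 38.8 and 41.2 to 65.9 and 68.9. Atrx was not called, at 0.04. Sumo2 varied within groups, at 63.9 and 288 against 230 and 71.8. Daxx, named after its value was seen, fell by 0.18. Only 3 falls were left without knockout replicate 1, without replicate 2, and without the intensity trend. SUMO enzymes were called in 5 of 18, the largest being a fall of Pias3 (log2 change -0.32).

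Of 16 genes that write, read or remove DNA methylation, 6 fell and 1 rose. Uhrf1, which brings DNMT1 to newly copied DNA, went from 166 and 162 FPKM to 109 and 114, and Dnmt1 from 85.3 and 78.1 to 65.3 and 64.2. Uhrf2 rose from 12.2 and 12.3 to 18.1 and 17.0, and Dnmt3b and Dnmt3l were not called, at 0.08 and -0.06. Germline genes, many of which DNA methylation silences in other cells, fell in 14 of 32 (43.8%) and rose in 7, 3 having passed through the knockout alone and 1 through wild type alone. There were 9 falls without the filter and 6 at a minimum of 5 FPKM. The cohesin Stag3 went from 11.02 and 9.63 to 4.31 and 4.57, the piRNA gene Mael from 17.2 and 17.9 to 8.21 and 9.05, and Tex19.1 from 48.5 and 48.3 to 28.1 and 25.9. Stra8, which starts meiosis under retinoic acid, fell from 11.3 and 11.8 to 2.48 and 3.72, while Cyp26a1, which degrades retinoic acid, rose by 1.30. Dazl and Ddx4 were not called, at -0.01 and -0.11.

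Homeobox cluster genes were low in all libraries. Of 39 such genes, 7 passed the filter, 6 of them through the knockout alone, so their rise is not counted as support. Hoxd9 was at 0 and 0.1003 FPKM in the wild-type libraries against 4.41 and 4.55 in the knockout, and its neighbour Hoxd8 at 0.1005 and 0.0326 against 2.72 and 3.21. The summed level of the 39 was 4.89 and 4.54 against 26.8 and 26.5.

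Other genes with large changes had varied roles. The myelin gene Pmp22 went from 0.826 and 0.897 to 31.3 and 32.7 FPKM, and the actin-severing protein gelsolin (Gsn) from 2.47 and 2.09 to 33.2 and 35.2. The chromatin protein Hmga2 rose from 3.58 and 3.49 to 37.0 and 41.1, and the cytokine Csf1 from 0.367 and 0.355 to 8.26 and 9.08. Lgals1, a galectin, had one of the largest absolute gains, from 113 and 116 to 454 and 474. On the falling side, the transcription factor gene Mef2b went from 18.5 and 18.2 to 2.51 and 2.16, Serpinf1, which encodes an inhibitor of vessel growth, from 11.4 and 12.5 to 1.35 and 1.76, and the peptide hormone gene Calca from 23.9 and 22.6 to 6.80 and 7.92. In absolute terms the mitochondrial protein gene Chchd10 fell from 950 and 907 to 616 and 594, ferritin heavy chain (Fth1) from 831 and 863 to 602 and 576, and the metallothionein Mt2 from 2186 and 2081 to 1638 and 1641.

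The small nucleolar RNA Snora16a had the largest fitted fall, from 277 and 416 FPKM to 0 in both knockout libraries. Its host gene Snhg12 was not called, at 44.04 and 47.9 against 46.3 and 45.3. Of 110 such RNAs named in the table, 7 had any value above 0, and 6 of those were at 0 in some library. Snora65 was at 761 in 1 knockout library and 0 elsewhere, and Snord22 at 407 in the other and 0 elsewhere. A listed 0 of so short an RNA therefore also occurred within groups.

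The ES cell identity of both groups was checked on its markers. Pou5f1 was at 1601 and 1594 FPKM against 1522 and 1557 in the knockout, Nanog at 249 and 254 against 250 and 243, and Dppa5a at 4407 and 4489 against 4640 and 4421. Sox2 and Zfp42 were not called either, and Esrrb fell by 0.18. Some other pluripotency genes did change. Of 17 naive factors, 8 (47.1%) fell and 2 rose, with Klf5, Gbx2 and Prdm14 lower by log2 changes of -0.81, -0.56 and -0.54. Of 15 formative genes tested, 8 (53.3%) rose and 3 fell, with rises of 0.97 in Sox11 and 0.93 in Sox4. Of 12 core factors, 3 fell and 1 rose, so the share called was not above the 35.4% of all genes. Markers of trophectoderm and fibroblasts mostly rose, as cytoskeleton and matrix genes did. Mesendoderm markers rose in 7 of 9 tested and fell in 0, with 2 that passed through the knockout alone. Other cell type lists moved both ways. Primitive endoderm markers rose in 6 and fell in 7 of 15, 3 having passed through wild type alone. Neural markers rose in 7 and fell in 5 of 13. Skeletal and heart muscle genes rose in 4 and fell in 3 of 11, 3 having passed through the knockout alone. Of 25 trophectoderm markers, 13 of 19 tested rose and 3 fell, with 4 that passed through the knockout alone and 1 through wild type alone, and the summed level was 204 to 206 in wild type and 923 to 941 in the knockout. Krt8 and Krt18 make up most of it in the knockout. The transcription factor gene Cdx2 went from 0.810 and 0.612 to 13.4 and 13.4 FPKM, and Hand1 from 0.439 and 0.564 to 13.9 and 11.7. Both passed the filter through the knockout alone. The trophoblast hormone genes Prl3d1 and Prl2c2 and the spongiotrophoblast gene Tpbpa were at 0 in all 4 libraries, and Elf5 was at 0.106 or less. Of 20 fibroblast markers, 11 of 13 tested rose and 1 fell, with 5 that passed through the knockout alone, 6 rises at a minimum of 5 FPKM, and sums of 220 to 231 against 690 to 733, and Tagln, Vim and Fn1 make up most of them. Dcn, Lum, Postn and Prrx1 were at 0.175 or less in every library, and Pdgfra was at 0.463 and 0.630 against 0.133 and 0.172. Endothelial and blood markers summed to 25.3 in both wild-type libraries and to 21.3 and 24.2 in the knockout. In bulk RNA, a few cells with much of a transcript and many cells with little of it cannot be told apart, and the part of such cells in the rises was not tested.

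Chromosome 1 stood apart in position. Of its 620 tested genes, 35.8% were called lower and 13.7% higher, and the median log2 change was -0.14. On all other chromosomes together, 17.9% were lower and 16.7% higher, with a median of -0.02. The median was -0.12 to -0.15 in each of the 4 pairings of a knockout with a wild-type library, -0.01 between the wild-type libraries and -0.02 between the knockout libraries. It lay between -0.11 and -0.17 in each of 5 equal groups of genes along the chromosome. The share of lower genes rose with level, to 54.9% on chromosome 1 and 24.5% elsewhere among genes of at least 30 FPKM. With values rescaled by the trimmed mean of M values, which puts the median of all genes at 0.00, the median of chromosome 1 was -0.12.

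Lefty1 and Lefty2 lie next to each other on chromosome 1, at chr1:180935022-180938400 and chr1:180893108-180899103 (GRCm38, GENCODE). They were at 78.0 and 65.8 against 45.7 and 45.4 FPKM, and at 73.4 and 71.3 against 42.0 and 45.7. Their falls of 0.64 and 0.71 were deeper than the chromosome's median. Counting from the deepest fall, Lefty1 was number 21 and Lefty2 number 16 of the 620 genes, and numbers 297 and 232 of all placed genes. Other genes of chromosome 1 rose, with Fhl2, Col3a1, Arl4c and Tgfb2 changed by 2.73, 2.41, 2.33 and 2.19. Of these, Fhl2, Col3a1 and Tgfb2 passed the filter through the knockout alone. The part of the lower chromosome 1 level in the fall of the Lefty genes was not tested.

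The X chromosome showed the opposite shift. Of 400 genes, 29.5% were called higher and 9.0% lower, with a median of 0.05. The ubiquitin ligase Rnf128 went from 2.14 and 2.45 to 20.1 and 19.04 FPKM, and the transcriptional co-activator Cited1 from 1.32 and 1.51 to 9.23 and 6.88. Alg13, for protein glycosylation, fell from 76.6 and 88.2 to 22.5 and 24.6. Xist was under 0.3 in every library. The Y-linked genes, left out of all tests, were at or near 0 in the knockout. Eif2s3y was at 16.2 and 20.6 against 1.10 and 0.753, Ddx3y at 4.39 and 3.99 against 0.250 and 0.141, and Uty at 1.73 and 2.01 against 0.0525 and 0.0520. Kdm5d was at 0 in all 4. The wild-type and knockout libraries thus differed in their Y-linked RNA as well as in Pml, and the part of such differences in any result here was not tested.

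**Figure D5:**
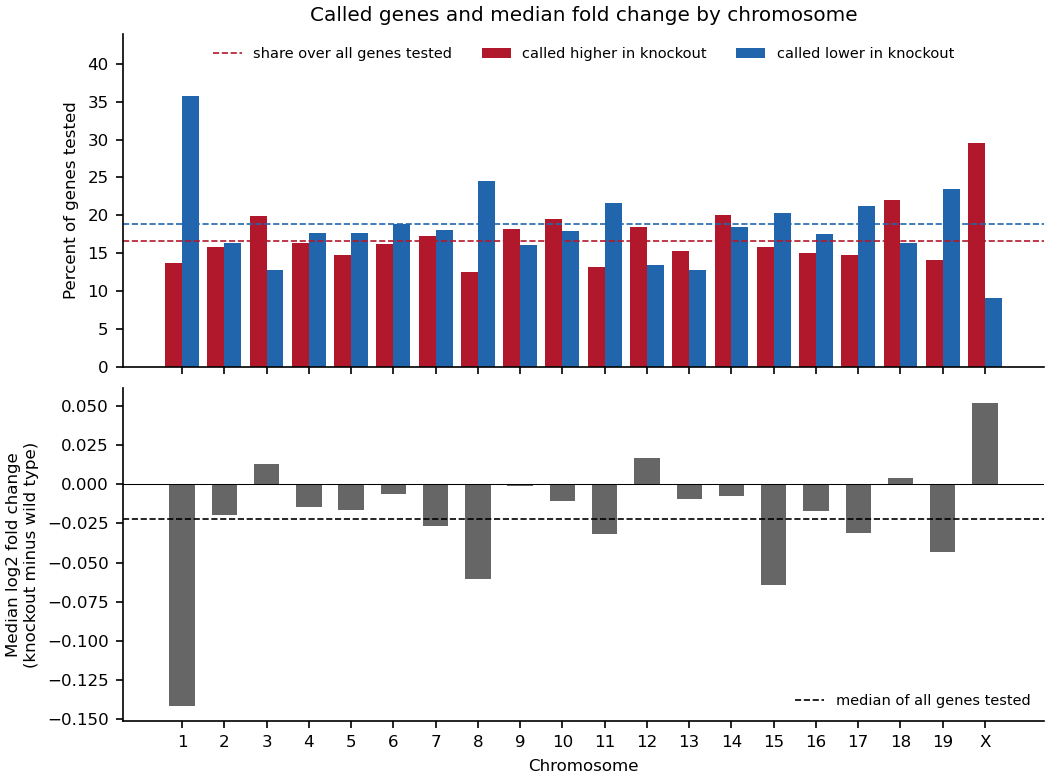
Top, percent of tested genes called higher (red) or lower (blue) in the knockout on each chromosome, with dashed lines for all genes (16.6% and 18.8%); bottom, median log2 fold change per chromosome, with a dashed line for all genes. Chromosome 1 has the highest share of lower genes (35.8%) and the X chromosome the highest share of higher genes (29.5%).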

How the data were processed

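RNA-seq libraries were made with a TruSeq RNA kit from total RNA, per the labels' protocols. Bowtie2 2.3.3, featureCounts 2.0.1, SAMtools 1.9, FastQC 0.11.5 and DESeq2 are listed without roles, with build mm10, per the submitters' processing notes. The authors deposited FPKM values per gene name, 1 column per library, and no source used here states the strand setting. Total FPKM was 663364 to 674924 per library, the depth behind it is unknown, and the number of libraries limits the precision.

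Of 24347 names, 27 date-like names and 4 Y-linked genes were left out. Genes with at least 1 FPKM in 2 or more of the 4 columns were kept, which leaves out genes low in both groups and tests a gene high in 1 group only because it is high there. The test was limma 3.58.1 in R 4.3.3 (moderated test with an intensity trend in the variance, two-sided; 2 residual degrees of freedom) on log2(FPKM + 1), called at adjusted p under 0.05. It was also run on simulated data in which far fewer genes changed than were called here. That run does not show how the test does on these data. Replicates correlated at 0.996 in both groups. The other libraries and tables of the series were not used here. Python 3.11.15, numpy 2.4.6, pandas 2.3.3 and matplotlib 3.10.9 made summaries and figures.

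Named genes are Pml, Lefty1 and Lefty2; the 30 largest called rises and 30 largest falls on the log2 scale and the 12 of each in FPKM; up to 6 called members per list with the largest change, and defining members not called; and 5 called genes of the chromosomes farthest from the overall median. Called genes named outside this rule were chosen after their values were seen: Bmp8b, Zyx, Myh9, Myh10, Actb, Csrp2, Srf, Cnn2, Myl9, Amotl2, Tead1, Tead2, Tead4, S100a10, Anxa11, Krt42, Col26a1, Col5a3, Lamb1, Lama1, Lamc1, Axin2, Mest, Nnat, Pycr1, Hif1a, Daxx, Esrrb, Fn1, Igf1r and Igf2r. The members, lists and rules were chosen with earlier results of these data known. Paralogs that share reads, such as the actins, keratins, ribosomal proteins and metallothioneins, are less certain, because it is not stated how shared reads were counted. Positions come from GENCODE on GRCm38 (23288 names matched by symbol and 664 by an older symbol), and promoters from RefSeq, GRCm38.p6, the 250 bases before each start. Alternatives were pseudocount, filter, scaling, variance model, a replicate block and leaving out each library. A few genes are not reported here.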

Additional observations from a re-analysis of the deposited data

How the results depend on the processing

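Each group has 2 libraries, so limma's shared variance estimate carries the error. The counts of genes higher and lower were 1931 and 2195. With a pseudocount of 0.1 the genes called and changed at least 2-fold were 726 in place of 448. Without the filter on low values 1318 genes were lower. With at least 5 FPKM in 2 libraries 263 genes changed at least 2-fold, since fewer genes were tested. Leaving out 1 library at a time gave 1498 to 1851 higher, 1545 to 1996 lower and 431 to 476 changed at least 2-fold. Rescaling by the trimmed mean of M values gave 2121 higher and 1865 lower, which turns the majority from lower to higher, and moved the median of all genes from -0.02 to 0.00. Of the 462 named genes and list members followed, 377 kept their call under every alternative that tested them and 85 did not, and no direction reversed. With at least 5 FPKM in 2 libraries, only 363 of the 462 were tested, so low genes among the 377 met fewer alternatives. Same-numbered libraries did not deviate together across genes (correlation 0.0236). With 2 libraries per group, this value cannot show whether the numbers pair them. With the replicate number as a block, 2013 genes were higher, 2312 lower and 449 changed at least 2-fold. Short or low genes are the least certain, because the depth is unknown. The cause of these shifts was not tested where no reason is given.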
